A study of Mus musculus with 54 samples.

Results

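The regions described here were the accessible chromatin around 9 neural lineage genes in mouse embryonic stem (ES) cells. The members were Pax6, Pax3, Sox1, Lhx2, Olig2, Neurog1, Neurog2, Neurod1 and Nes, out of 21938 protein_coding genes of the GENCODE M21 annotation. Of these, 8 encode transcription factors, while Nes encodes nestin, an intermediate filament protein that marks neural progenitors, so the name "transcription factor genes" did not cover it. A peak was assigned to a gene when its centre lay within 50 kb of any of the gene's transcription start sites (TSSs), and 83 of the 113737 peaks met this rule.

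The peaks came from ATAC-seq, in which the Tn5 transposase cuts and tags accessible DNA. The series held 54 samples in 24 groups, all from ZHBTc4 cells, a line of mouse ES cells in which dox shuts off Pou5f1, the gene of OCT4, and which carried mCherry-OCT4-AID, an OCT4 fused to a fluorescent protein and to a degron through which the auxin IAA has it destroyed by the TIR1 ligase. The cells also carried YPet-MD, a fluorescent reporter of cell cycle phase, and these constructs came from lentiviral vectors. They grew in serum with LIF and the inhibitors CHIR99021 and PD184352. All groups had dox. In 22 samples sorted into the cell cycle phases Early G1, Late G1, S and Late S/G2, dox lasted 26 hr and cells had either 2 hr of 500 nM IAA or none. In 16 sorted samples dox lasted 31 hr, cells had 2.5 hr of IAA or none, and a 4.5 hr washout followed. The remaining 16 samples, not sorted by phase, had 34 hr of dox and either no IAA or IAA for 30 min, 1, 2, 3, 4, 6 or 10 hr. The authors merged the peaks of these experiments into 1 list of positions, with no height, count or sample attached. No value below can therefore be assigned to a treatment, phase or replicate, depth is unknown, and no test between conditions was possible. All comparisons are descriptions of positions, widths and sequence, of genes against all protein_coding genes or those with a TSS peak, and of distal peaks against all distal peaks of the list. These backgrounds include the members.

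The members belong to families that act at successive steps of neural development. SOX1 is an HMG-box factor of early neuroectoderm, PAX6 and PAX3 are paired-box factors that pattern the neural tube, and LHX2 is a LIM-homeodomain factor of the forebrain and eye. NEUROG1, NEUROG2 and NEUROD1 are basic helix-loop-helix (bHLH) factors that promote neuronal differentiation, and OLIG2 is a bHLH factor of motor neuron and oligodendrocyte progenitors. Most such genes are silent or expressed at low levels in pluripotent cells, and many have CpG islands, stretches of DNA in which the CpG dinucleotide has not been lost by methylation and mutation. CpG content is given as the observed number of CpGs over the number expected from the C and G content, and a region is called CpG-rich here at a ratio of at least 0.6 with a GC content of at least 50%.

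Sequences are shown first for 2 promoters, since Neurog2 had both the widest TSS peak and the highest CpG ratio over the 1 kb centred on its TSS, and Pax6 had the lowest such ratio. Both are RefSeq sequences of GRCm38, limited to bases upstream of the TSS that overlap no annotated exon, with each CpG in capitals. The Neurog2 stretch ends before an exon of a longer RefSeq transcript that begins at position 127633115. RefSeq promoter sequences were matched for 8 of the 9 members. The Neurog2 stretch lay at chr3:127632886-127633114 on the plus strand and the Pax6 stretch at chr2:105668646-105668895 on the plus strand, at the most 5′ TSS of Pax6.
Neurog2 promoter: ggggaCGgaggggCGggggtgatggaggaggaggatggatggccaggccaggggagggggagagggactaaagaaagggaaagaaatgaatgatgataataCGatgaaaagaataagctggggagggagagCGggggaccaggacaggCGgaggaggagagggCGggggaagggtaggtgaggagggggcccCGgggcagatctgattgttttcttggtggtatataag
Pax6 promoter: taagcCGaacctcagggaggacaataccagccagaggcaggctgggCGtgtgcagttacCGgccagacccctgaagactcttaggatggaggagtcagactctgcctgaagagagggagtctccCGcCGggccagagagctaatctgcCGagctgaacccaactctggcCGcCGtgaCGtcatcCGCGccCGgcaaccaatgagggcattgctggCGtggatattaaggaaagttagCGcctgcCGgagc
The Neurog2 stretch held 7 CpGs in 229 bases and the Pax6 stretch 15 in 250, and both lay inside a peak over their whole length. The CpG ratios of these upstream stretches were close, at 0.64 for Neurog2 and 0.65 for Pax6, so the difference over 1 kb is not seen in the printed bases.

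Sequences are shown next for 2 distal peaks, meaning peaks whose centre lay more than 1 kb from every annotated TSS. The CpG-rich peak upstream of Neurog1 had the highest CpG ratio of distal peaks centred outside GENCODE exons and overlapping no RefSeq exon. This peak was chosen after its values were seen. Its central 300 bases, chr13:56258596-56258895 of GRCm38, are written on the minus strand, that of the gene, with CpGs in capitals. The peak in intron 2 of Nes was the distal peak nearest to that gene's TSS. Its central 300 bases, chr3:87974435-87974734 of GRCm38 on the plus strand, have motif matches in capitals.
Neurog1 distal peak: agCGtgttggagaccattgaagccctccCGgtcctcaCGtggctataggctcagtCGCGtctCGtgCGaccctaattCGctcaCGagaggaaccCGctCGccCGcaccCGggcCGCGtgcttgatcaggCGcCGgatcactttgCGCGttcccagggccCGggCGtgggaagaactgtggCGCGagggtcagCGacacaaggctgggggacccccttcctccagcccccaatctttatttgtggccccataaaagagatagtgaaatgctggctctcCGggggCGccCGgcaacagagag
Nes distal peak: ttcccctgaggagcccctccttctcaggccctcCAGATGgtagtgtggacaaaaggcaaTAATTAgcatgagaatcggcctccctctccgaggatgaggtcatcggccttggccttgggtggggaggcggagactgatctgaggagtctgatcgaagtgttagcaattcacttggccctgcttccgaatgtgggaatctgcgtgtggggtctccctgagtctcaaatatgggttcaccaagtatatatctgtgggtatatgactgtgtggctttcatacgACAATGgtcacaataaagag
The Neurog1 stretch held 27 CpGs and the Nes stretch 8. The capitals in the Nes stretch mark, from the 5′ end, an E-box CAGATG at bases 34 to 39, a homeobox core TAATTA at bases 60 to 65 and the reverse complement of the SOX core CATTGT at bases 281 to 286.

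All 9 members had a TSS peak, a peak centred within 1 kb of a TSS, against 70.8% of protein_coding genes. The background differed by CpG content. A promoter was taken as the 1 kb centred on the TSS nearest to the TSS peak. For genes without a TSS peak the most 5′ TSS was used. Of the genes with a CpG-rich promoter 99.3% had a TSS peak, and of all other genes 46.1% did. The window thus depended on whether a gene had a TSS peak, and its effect on these shares was not tested. Among the members 8 had a CpG-rich promoter, as did 65.2% of genes with a TSS peak. With promoters placed in this way, a TSS peak was the usual state of CpG-rich ones. Over this 1 kb the promoter of Pax6 was not CpG-rich. Its ratio was 0.57 at the TSS nearest to a peak centre and also 0.57 at its most 5′ TSS. The TSS peaks of Pax6 were CpG-rich except those of 887 bp (ratio 0.26) and 295 bp (0.37). They included peaks of 640 bp (0.70) and 2287 bp (0.75). Over 1 kb the ratios of the other members ran from 0.67 for Pax3 and 0.68 for Neurod1 to 0.80 for Sox1 and 0.85 for Neurog2. For every member the TSS lay inside its TSS peak.

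TSS peaks of the members spanned 429 to 2540 bp with a median of 1163 bp, against a median of 1172 bp (quartiles 892 and 1440 bp) over the 15535 genes with a TSS peak. Among the 10134 genes that also have a CpG-rich promoter, the median was 1295 bp (quartiles 1094 and 1547.75 bp). The members lay on both sides of either median, and their own median was below that of the CpG-rich promoters. Neurog2 stood at the upper end, with a peak of 2540 bp that was wider than those of 99.1% of genes. It covered chr3:127632227-127634766 and most of the gene, which runs from 127633135 to 127635631. Olig2 stood at the lower end, at 429 bp, with 7.97% of genes having narrower peaks. Neurod1 had 514 bp and Pax6 640 bp for the peak centred nearest to a TSS, and the remaining widths were 1079 bp for Sox1, 1163 bp for Nes, 1229 bp for Lhx2, 1395 bp for Pax3 and 1501 bp for Neurog1.

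The narrow peaks did not all belong to compact loci. Pax6 has 24 annotated TSSs, and 7 separate peaks were centred within 1 kb of them, the widest of 2287 bp at chr2:105674532-105676818. Lhx2 had 3 TSS peaks, the widest of 1877 bp at an internal promoter. Only 6.94% of genes with a TSS peak had 3 or more. Olig2 had 2, the second of 384 bp lying just downstream of the first. When the widest TSS peak of each gene was taken, a choice made after the data were seen, the median of the members became 1395 bp, against 1219 bp for all genes with a TSS peak under the same rule. The TSS peak of Neurod1, chr2:79456515-79457028, lay 13 bp from a TSS of Cerkl, a gene read on the same strand, so it cannot be assigned to Neurod1 alone.

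Within the TSS peaks, the CpG ratio ran from 0.66 for Pax3, 0.68 for Lhx2 and 0.70 for Pax6 to 0.85 for Nes and 0.86 for Neurod1. The median was 0.75, against 0.69 (quartiles 0.54 and 0.79) over all genes with a TSS peak. The members held a median of 8.22 CpGs per 100 bp where all genes held 5.83. The ratio did not follow width, since Neurod1 with 514 bp and Nes with 1163 bp were both at the top.

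**Figure D1:**
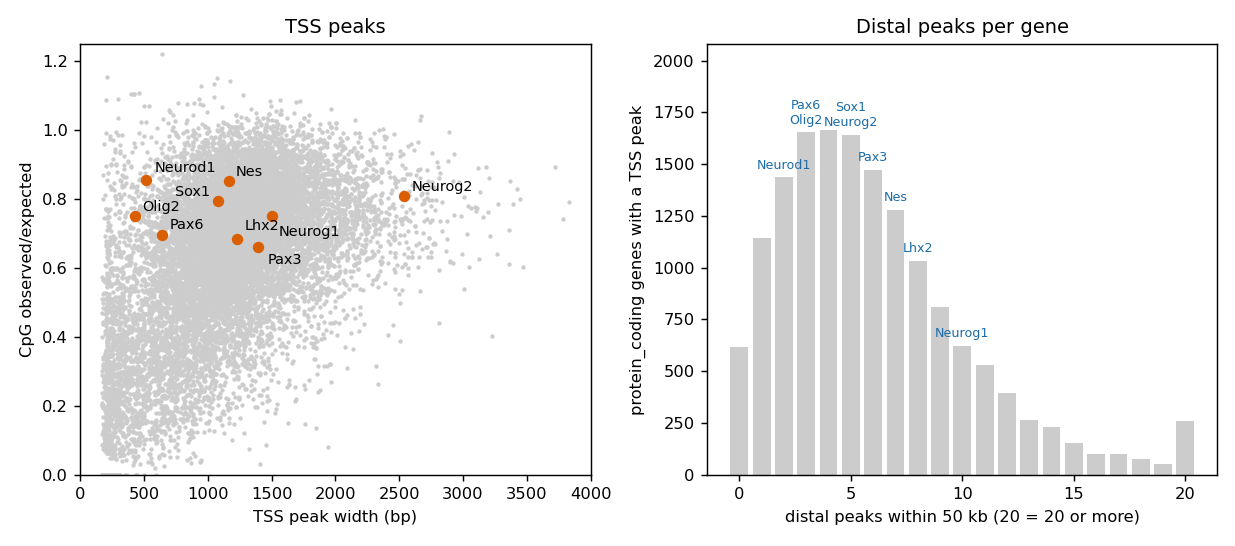
The left panel plots the width of the TSS peak (bp) against its CpG observed/expected ratio for protein_coding genes with a TSS peak (grey; peaks wider than the axis are not drawn) and for the 9 members (orange), of which Neurog2 at 2540 bp lies apart in width. The right panel counts those genes by their number of distal peaks within 50 kb, with each member's name above the bar for its count, from 2 for Neurod1 to 10 for Neurog1.

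The number of distal peaks did not set the members apart. They had 49 in all, none counted for more than 1 member, with a median of 5 per gene against a median of 5 (quartiles 3 and 8) for genes with a TSS peak. Neurog1 had the most with 10, then Lhx2 with 8, Nes with 7, Pax3 with 6, Sox1 and Neurog2 with 5, Pax6 and Olig2 with 3 and Neurod1 with 2. In all 4 members had more than 5, as did 47.5% of genes. Close to the TSS, 5 members had 3 or more peaks within 5 kb, against 28.8% of genes. Pax6 had 9 such peaks and Lhx2 had 6. Neurog1, the member with the most distal peaks, had only its TSS peak within 5 kb.

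Of the 49 distal peaks, 24 lay upstream and 25 downstream of the member's nearest TSS. By the position of the centre, 32 were intergenic, 12 intronic and 5 exonic, and 8 lay within the member itself. For 35 the closest protein_coding TSS was that of the member. This held for all distal peaks of Pax6, Pax3, Sox1, Lhx2 and Olig2, for 4 of 5 of Neurog2, for 5 of 10 of Neurog1, for 1 of 7 of Nes and for neither of the 2 of Neurod1. Nes lies among Isg20l2, Crabp2 and Bcan and Neurod1 beside Cerkl, so most of the distal peaks near these genes are closer to a neighbour. When TSSs of non-coding genes counted too, the member was closest for 21.

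**Figure D2:**
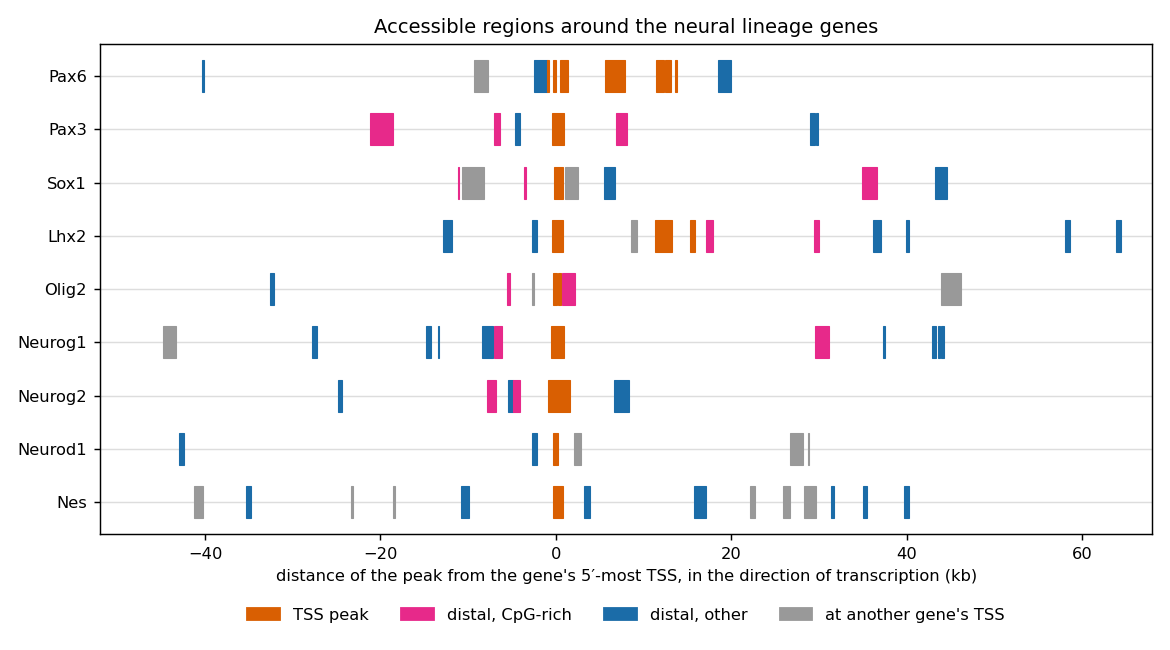
Each bar is a peak drawn to scale, placed by its distance (kb) from the member's most 5′ TSS in the direction of transcription: TSS peaks in orange, CpG-rich distal peaks in pink, other distal peaks in blue and peaks at a TSS of another gene in grey. CpG-rich distal peaks appear at 6 of the 9 genes, and Pax6 and Lhx2 have TSS peaks at internal promoters.

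The CpG content of the distal peaks was high. Among the 49, 14 were CpG-rich, or 28.6%, against 2.54% of all 89794 distal peaks. The share was 3.28% among distal peaks within 50 kb of any gene with a TSS peak and 3.65% among those near genes that also have a CpG-rich promoter. The median CpG ratio of the members' distal peaks was 0.46, against 0.21 for all. The 14 peaks belonged to 6 members, 3 each at Pax3 and Sox1 and 2 each at Lhx2, Olig2, Neurog1 and Neurog2. Pax6, Neurod1 and Nes had none. Thus 6 of 9 members had 2 or more CpG-rich distal peaks, against 5.18% of genes with a TSS peak. This count was 3 when peaks with gaps under 500 bp were joined (3.81% of genes) and 4 when distal meant beyond 2500 bp (2.34%). With any 1 member left out the share of CpG-rich peaks ranged from 25% (without Sox1) to 33.3% (without Nes). With stricter limits, a ratio of 0.75 and a GC content of 55%, the share was 6.12% against 0.590% of all distal peaks. With the original limits it was 44.4% in a window of 20 kb and 19.8%, or 17 of 86, in a window of 100 kb. In the 100 kb window 6 members had 2 or more CpG-rich distal peaks, against 10.3% of genes.

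CpG-rich peaks are more frequent close to promoters, so the share was also taken by distance to the nearest TSS of any gene. Between 1 and 5 kb, 7 of 14 distal peaks of the members were CpG-rich, against 5.25% of all distal peaks in that range. Between 5 and 20 kb the count was 6 of 27 against 2.1%, and between 20 and 50 kb it was 1 of 8 against 1.57%. The members' share was above the background in each range, although the last rests on 1 peak.

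The paired-box gene Pax3 lies at chr1:78101267-78197134 on the minus strand. Its widest distal peak, also the widest of all 49, spanned 2555 bp at chr1:78215748-78218302, 19.9 kb upstream of the TSS, and held 204 CpGs at a ratio of 0.79. In GENCODE this peak is intergenic, but RefSeq places the TSS of the predicted gene Gm2102 inside it, so it may be called a promoter or a distal region depending on the annotation. A CpG-rich peak of 702 bp lay 6.73 kb upstream, with a ratio of 0.67. A CpG-rich peak of 1182 bp lay in intron 4, 7.18 kb downstream, with a ratio of 0.65. The other 3 distal peaks of Pax3 had ratios of 0, 0.43 and 0.52.

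Pax6, the other paired-box gene, lies at chr2:105668900-105697364 on the plus strand and had no CpG-rich distal peak. Its distal peaks were a peak of 1447 bp centred 1.76 kb upstream, with a ratio of 0.49, a peak of 1510 bp inside the gene with a ratio of 0.41, and a peak of 242 bp 40.3 kb upstream with a ratio of 0.13. A peak of 1614 bp lay 8.52 kb upstream at a TSS of the lincRNA Paupar and was not counted as distal. The accessible sequence of Pax6 was therefore mostly at its own TSSs.

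Sox1 lies at chr8:12395295-12400126 on the plus strand, within the overlapping transcript Sox1ot. Its 3 CpG-rich distal peaks were small or far away: 207 bp at 11.1 kb upstream, 299 bp at 3.54 kb upstream and 1717 bp at 35.7 kb downstream, with ratios of 0.66, 0.68 and 0.64. Other CpG-rich peaks at Sox1 were kept out of the distal count because non-coding genes start there. A peak of 2413 bp with a ratio of 0.77 lay 9.45 kb upstream at a TSS of Sox1ot. Another of 1489 bp covered coding sequence of Sox1 and the miRNA gene Gm25239 and had a ratio of 1.02, above that of any distal peak of the members.

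Lhx2 lies at chr2:38339281-38369733 on the plus strand. A CpG-rich peak of 786 bp lay in an intron, 2.96 kb from the nearest TSS, with a ratio of 0.69. Another of 652 bp was centred on coding sequence near the 3′ end, with a ratio of 0.69, and a RefSeq TSS of the antisense gene Gm13584 lay inside it. The distal peak farthest from the TSSs of Lhx2, 49.6 kb from the nearest and 589 bp wide, had a ratio of 0.47.

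Among the bHLH genes, Olig2 at chr16:91225457-91228677 on the plus strand had the distal peak with the highest CpG ratio. It spanned 1432 bp at chr16:91226179-91227610 over the coding exon, centred 1.44 kb from the TSS, and held 134 CpGs at a ratio of 0.86. Only 141 bp separated it from the second TSS peak, so the TSS peaks and this peak form a near-continuous accessible stretch. A second CpG-rich peak of 441 bp lay 5.41 kb upstream. The paralog Olig1 lies within the 50 kb window and had a TSS peak of 2237 bp.

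Neurog1 lies at chr13:56250478-56252163 on the minus strand. Its CpG-rich distal peak at 6.58 kb upstream, whose centre is printed above, spanned 865 bp with 60 CpGs at a ratio of 0.84. A peak of 1267 bp began 144 bp beyond it and had a ratio of 0.57, just under the limit. A CpG-rich peak of 1567 bp with 94 CpGs lay 30.3 kb downstream. At Neurog2, CpG-rich peaks of 764 bp and 1059 bp lay 4.50 kb and 7.34 kb upstream, with ratios of 0.66 and 0.73, and RefSeq places a TSS of Gm40147 inside the nearer. A peak of 1773 bp 7.47 kb downstream was the widest distal peak of Neurog2 and had a ratio of 0.55.

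Neurod1, at chr2:79452521-79456751 on the minus strand, had distal peaks of 562 bp, 2.48 kb upstream, with a ratio of 0.57, and of 601 bp, 42.7 kb upstream, with a ratio of 0.35. Its gene body held a peak of 827 bp with a ratio of 0.80, which was not distal because the lincRNA Gm26755 starts within 1 kb. For Nes, at chr3:87971078-87980451 on the plus strand, the nearest distal peak was that of 701 bp in intron 2, 3.46 kb from the TSS, with a ratio of 0.29. The widest was 1377 bp over an annotated UTR of Bcan with a ratio of 0.41. The highest ratio among the 7 distal peaks of Nes was 0.46.

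The values nearest to the limit of 0.6 were 0.64 and 0.65 above it, at Sox1 and Pax3, and 0.57 below it, at Neurod1 and Neurog1. The CpG-rich peaks ranged from 207 bp with 9 CpGs to 2555 bp with 204 CpGs. By their centres 8 of these were intergenic, 4 intronic and 2 over coding sequence in GENCODE. In this set 7 overlapped no RefSeq exon and were centred outside GENCODE exons, and 3 had a RefSeq TSS inside. With every peak removed that had a GENCODE or RefSeq TSS inside it or within 1 kb of its centre, a choice made after the data were seen, 11 of 42 distal peaks were CpG-rich, or 26.2%, against 2.33% of all distal peaks under the same rule. In that setting 4 of 9 members kept 2 or more CpG-rich distal peaks, against 4.42% of genes.

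Distal peaks of the members were also wide. Their median width was 601 bp, against 380 bp (quartiles 251 and 642 bp) for all distal peaks, and 15 of 49 were 1 kb or wider, against 7.28%. Of these 15, 6 were CpG-rich. The median was 825.5 bp for the 14 CpG-rich peaks and 562 bp for the other 35, so the peaks that were not CpG-rich were also wider than the background median. Near genes with a TSS peak, the median width of distal peaks was 415 bp. It was 568 bp for a list of mesoderm genes, 487 bp for a wider list of neural regulators and 463.5 bp for pluripotency genes, so widths above the overall median were not particular to the members.

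**Figure D3:**
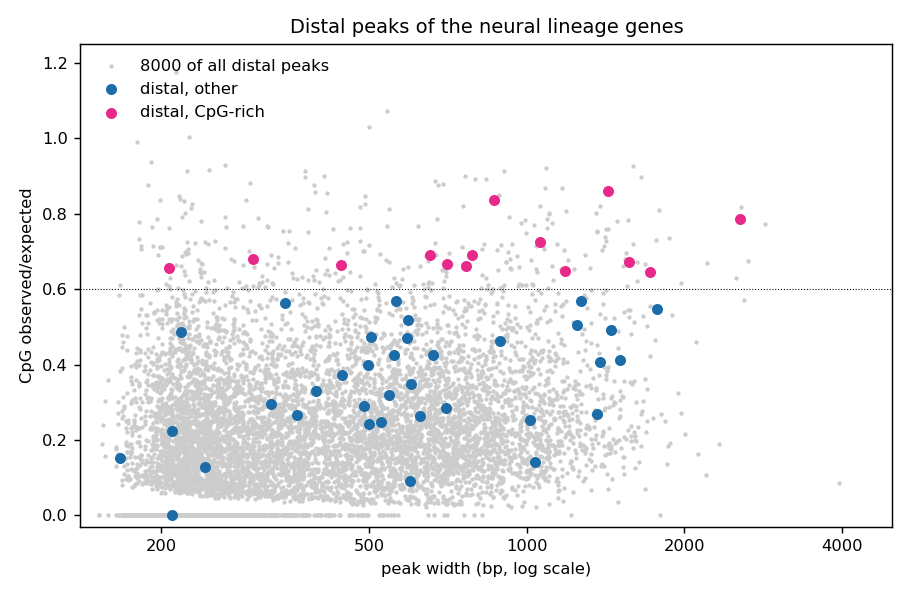
Width (bp, log scale) is plotted against CpG observed/expected ratio for the 49 distal peaks of the members, CpG-rich in pink and others in blue, over 8000 distal peaks of the whole list drawn by a seeded sample (grey). The dotted line is the ratio of 0.6, and the members' medians of 601 bp and 0.46 compare with 380 bp and 0.21 for all distal peaks.

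Short motifs were searched in the 300 bp at the centre of each distal peak, on both strands. The octamer ATGCAAAT, the sequence read by POU factors such as OCT4, was in 4 of the 49 windows and in 2.05% of all. The 4 windows belonged to Pax3, Sox1, Neurog1 and Neurog2, 1 each, and that of Pax3 lay in the CpG-rich peak 6.73 kb upstream. The SOX core CATTGT was in 9 windows, against 19.1%. The composite OCT4::SOX2 motif, CATTGT followed directly by TATGCAAAT with up to 2 mismatches, was in none of the 49, against 0.167% of all. No match says only that these letters are not in these windows.

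For the motif families of the members themselves, the E-box CAGCTG was in 6 windows against 18.3%, the E-box CAGATG in 12 against 22.6% and the homeobox core TAATTA in 3 against 6.51%. The CTCF core motif, with up to 1 mismatch, was in 7 windows against 12.9%. The shares were 12.2% for CAGCTG, 24.5% for CAGATG, 6.12% for TAATTA and 14.3% for CTCF. That of CAGCTG, below the background here, was above it when whole peaks were searched, at 36.7% against 25.8%. Over whole peaks CAGATG was in 42.9% against 32.0% and CTCF in 26.5% against 16.1%. The octamer was in 12.2% against 3.05%. Below the background were TAATTA, in 8.16% against 10.1%, and CATTGT, in 24.5% against 26.0%. The whole peaks searched had a median width of 601 bp for the members and 380 bp for all, and the part of width in these shares was not tested. E-boxes and CATTGT can occur together in a window, and CATTGT is part of the composite motif.

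The RE1 motif of the neuronal repressor REST, TTCAGCACC and GGACAG spaced by any 2 bases with up to 2 mismatches, was in none of the 49 windows, against 0.533%. Over all peaks of the list 0.522% held it. Of the 83 peaks near the members 2 did, neither of them distal: the gene-body peak of Neurod1, and a peak at a TSS of Bcan within 50 kb of Nes. The Neurod1 match lay in the coding sequence at chr2:79454331-79454347 on the minus strand of GRCm38. It is printed with the scored letters in capitals and differed from the motif at 2 of 15 scored letters.
Neurod1 RE1 match: TACGGCACCatGGACAG

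Lists of related genes placed these values. The 47 other neural regulators, among them Dlx, Lhx and Nkx genes, had a TSS peak in 43 cases, with Neurod2 and Neurod6 among those without, and a median of 6 distal peaks. Of their 294 distal peaks 69 were CpG-rich, or 23.5%, and 17 of the 47 genes had 2 or more. The most distal peaks were at Neurod4, Pax2 and Dbx1, with 13 each. Tbr1, Lhx5 and Msx1 each had 5 CpG-rich distal peaks, and these were named after their values were seen. Both CpG-rich peaks of Olig1 are also those of Olig2, so 2 of the 69 are shared with the members.

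The share was lower in the other lists. It was 9 of 77 for 13 paralogs of the members, which overlap the neural list and count the same 2 Olig1 peaks, and 8 of 65 for 10 mesoderm genes. For 12 genes of mature neurons and glia it was 5 of 82, for 10 genes of terminally differentiated tissues 2 of 52, and for 10 pluripotency genes 4 of 108. The paralogs without a TSS peak were Pax4, Neurod2 and Neurod6, and Tbx6 was the mesoderm gene without. Of the tissue genes, such as Alb of liver and Ins2 of pancreas, only Ckm had a TSS peak. All 12 mature neural genes had a TSS peak, with the most distal peaks at Mbp with 20, Rbfox3 with 17 and Slc32a1 with 9.

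The pluripotency genes had a higher median number of distal peaks and a lower CpG-rich share than the members. Expression of these genes was not measured here, and dox shut off Pou5f1, which is on the list. All 10 had a TSS peak and their median was 10 distal peaks, with 26 at Esrrb, 17 at Tbx3 and 14 each at Nanog and Klf5, although Nr0b1 had 2, Klf4 had 3 and Tfcp2l1 had 5. Of their distal peaks, 3.70% of 108 were CpG-rich. The members had a median of 5 distal peaks and 28.6% CpG-rich. No test of these differences was made, since the lists were chosen with earlier results known.

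**Figure D4:**
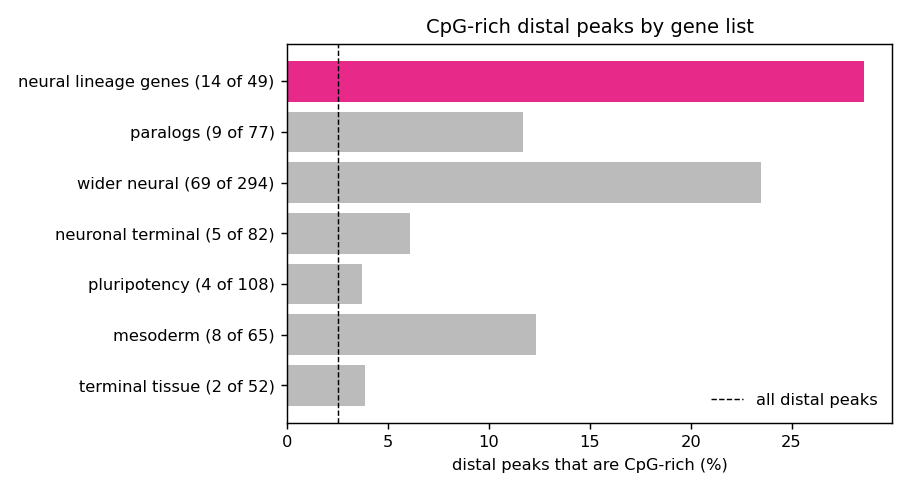
Bars give the percentage of distal peaks within 50 kb that were CpG-rich for each gene list, with the counts in the labels, and the dashed line marks 2.54% for all distal peaks. The members reach 28.6% and the wider neural list 23.5%, while the pluripotency list stands at 3.70%.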

How the data were processed

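The deposited file held 1 merged list of 113737 ATAC-seq peak positions (chromosome, start, end), with no score, count or signal. Per the submitters' processing notes and methods, the authors aligned reads with STAR 2.6.1c to GRCm38, removed duplicates with Picard, called peaks with MACS2 2.1.1.20160309 and merged them with bedtools. Whether libraries were pooled before calling is not given in the sources used here. Removal of peaks above 5 kb is described, yet 11 are in the list. A merged list can hold wider and more numerous peaks as libraries are added, and merging can also join neighbouring peaks. Neither effect was measured here.

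Positions were compared with GENCODE M21 TSSs, and sequence was read from the RefSeq GRCm38.p6 genome, with Python 3. A gene with several TSS peaks was represented by the one centred nearest to a TSS. Distal peaks lay over 1 kb from every TSS. CpG ratios were computed over whole peaks. The scripts were tested on simulated peaks and planted motifs. All members were named. Of other lists, genes without a TSS peak and the 3 with most distal peaks were named. Some genes that this rule selects are not reported here, and Nr0b1, Klf4, Tfcp2l1, Tbr1, Lhx5 and Msx1 were named outside it, after their values were seen. The members and lists were chosen with earlier results of these data known. No samples entered any comparison, so no p-values were computed.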

Additional observations from a re-analysis of the deposited data

How the results depend on the processing

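Of 92 recomputed values, 86 moved by less than 1 SD over the members or their peaks, stayed inside the 95% Wilson interval of the share, or stayed within 1.5 times the count. These limits were wide, with an SD of 643 bp for TSS peak width and 509 bp for distal peak width. Some alternatives, such as leaving out peaks above 5 kb, could not change any peak of the members. The count of 86 is therefore no measure of robustness. All 9 members had a TSS peak under the 6 alternatives tried for that count. The share of CpG-rich distal peaks was 6.12% with a ratio of 0.75 and GC content of 55% as limits (all distal peaks 0.590%). It was 44.4% in a window of 20 kb and 19.8% in a window of 100 kb. The median number of distal peaks was 9 in a window of 100 kb (all genes 10). The member was the closest gene for 21 peaks when TSSs of all genes counted. Over whole peaks, CAGCTG was in 36.7% (all 25.8%) and CAGATG in 42.9% (all 32.0%). Members with 2 or more CpG-rich distal peaks fell from 6 to 3 when peaks with gaps under 500 bp were joined (all genes 3.81%), and to 4 when distal meant beyond 2500 bp (2.34%). The comparison with RefSeq TSSs, the widest TSS peak and the share without each member were added after the data were seen. Leaving out replicates was not possible, and depth limits could not be stated, since no position belongs to a sample. No paired analysis was possible because the list holds no values of samples and no result comes from a test.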
